A study of Mus musculus with 4 samples.

Results

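The colony-stimulating factors and Flt3 ligand are the secreted proteins that instruct blood progenitors to become myeloid and dendritic cells, and 8 of their genes were examined here: the ligands Csf1, Csf2, Csf3 and Flt3l, and the receptors Csf2ra, Csf2rb, Csf3r and Flt3. Members were taken as every array feature that the platform annotation assigns to exactly 1 of these symbols. This gave 28 spots for the 8 genes, out of 45220 features and 19087 named genes. Csf1 and Csf2 each had 10 repeated spots, Csf2rb had 3 probes and the other genes had 1 probe each, so that 10 probes were tested.

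The 4 samples were RNA of xenografts grown in immunodeficient mice from the human breast cancer cell line MDA-MB-231, which is triple-negative. The sunitinib group (2 samples) had received this multikinase inhibitor at 40 mg/kg/day, and the other group (2 samples) had received vehicle. The labels give neither the strain, sex and age of the hosts nor the time of sampling, although the series title speaks of withdrawal of the drug. Each array carried mouse probes, which read host cells and any human transcript that binds them. Slide 1 held both arrays numbered replicate 1, and slide 2 both arrays numbered replicate 2, so each slide gives its own difference between sunitinib and vehicle. On both slides the vehicle sample lay on array 1 and the sunitinib sample on array 2. Treatment and place of the array on the slide therefore cannot be told apart. Whether replicates were separate tumours is not stated. The p-values therefore rest on the spread between these samples, moderated by the spread of all probes.

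Csf1 (M-CSF) keeps monocytes and macrophages alive and dividing, and acts through the kinase Csf1r, which is not analysed here. Csf2 (GM-CSF) and Csf3 (G-CSF) are made on demand in inflammation, and drive the output and activity of granulocytes and, for Csf2, macrophages. Flt3l expands early progenitors and dendritic cells through the kinase Flt3. Csf1r and Flt3 are both among the kinases that sunitinib blocks. The Csf2 receptor pairs a specific alpha chain, Csf2ra, with the signalling beta chain Csf2rb, which the receptors for interleukin 3 and interleukin 5 also use.

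All values are log2 intensities as deposited. The 5th percentile of the features was 8.48 or 8.49 on every array, and the median of all named genes, each taken at its brightest probe, was 9.08. Of the 10 member probes, 5 had a mean above that median, belonging to Csf1, Csf2ra, Csf2rb and Csf3r. Csf2, Csf3, Flt3 and Flt3l lay below it, where a change of RNA is hard to see and differences are compressed. All 28 spots stayed below saturation on every array.

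None of the 10 probes passed in limma after Benjamini-Hochberg adjustment over all 43154 tested probes (0 of 10, against 0.00232% of all probes, which is 1 probe). At an unadjusted p under 0.05, also in limma, the count was 1 lower (Csf1) and 0 higher, where 5.7% of all probes were lower and 7.72% higher. In 3 probes, those of Csf1, Csf2ra and Flt3, both sunitinib arrays read below both vehicle arrays, and in 0 probes above. Over all probes the shares were 21.6% lower and 25.5% higher, so that a separation of 2 arrays from 2 is common in these data. Within slides, 5 of 10 probes were lower on both slides and 0 were higher on both, where all probes gave 27.3% and 31.3%. The 5 include Csf2, at -0.015 and -0.005, and Csf2ra, at -0.03 on slide 1. The 5 also include Flt3 and Flt3l, which were at 0.007 and 0.036 once a smooth trend with array position was removed. The median difference was -0.115 over the member probes and 0.005 over all probes.

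**Figure D1:**
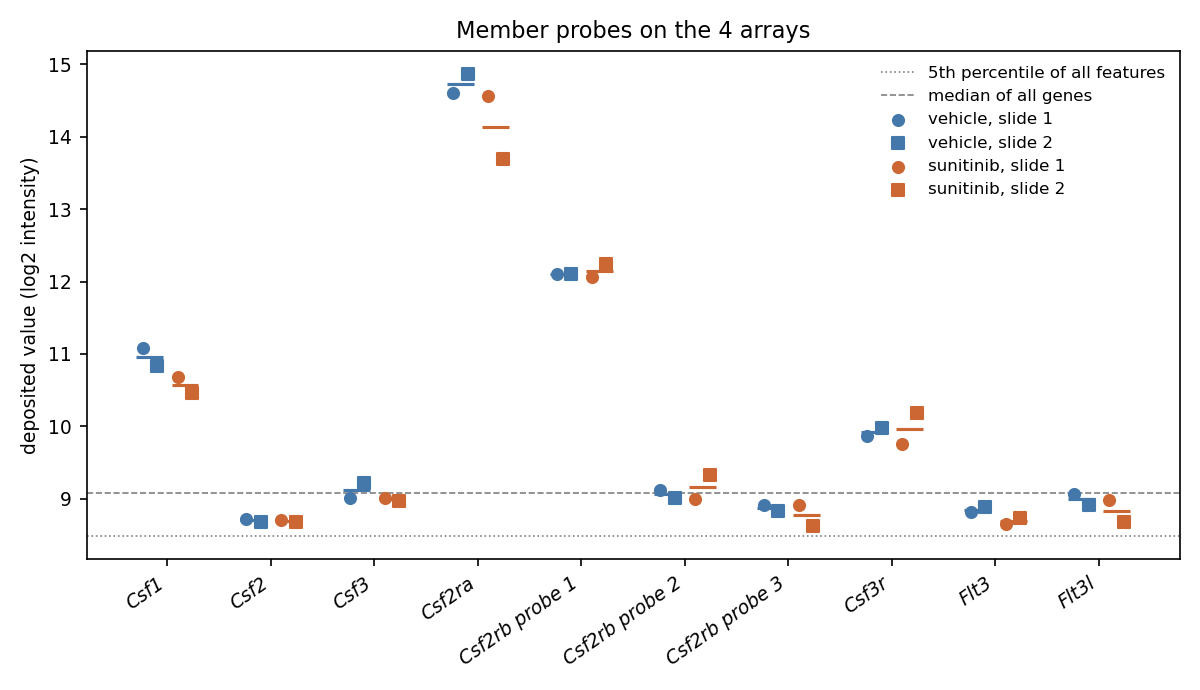
Deposited log2 intensity (vertical axis) of the 10 member probes on the 4 arrays, with circles for slide 1, squares for slide 2 and short lines for group means (n = 2 per group). Csf1 reads lower on both sunitinib arrays, Csf2ra is low on sunitinib replicate 2 alone (13.70), and Csf2, Flt3 and Flt3l lie below the median of all genes.

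Among the ligands, Csf1 was the member with a clear signal and nearly the same difference on both slides. The median of its 10 spots (accession NM_007778) was 11.09 and 10.84 on the vehicle arrays and 10.69 and 10.46 on the sunitinib arrays. Both sunitinib arrays were thus below both vehicle arrays, and slide 2 read lower than slide 1 in either group. The group means were 10.96 ± 0.18 and 10.57 ± 0.16 (SD, n = 2), a difference of -0.39 (SE 0.13, 95% interval -0.735 to -0.045, limma unadjusted p = 0.0338, adjusted p = 0.356). On the linear scale this is 0.763 times the vehicle level. The difference was -0.40 on slide 1 and -0.38 on slide 2. How near these 2 values are depends on matching the arrays by slide. Over all features the arrays of 1 slide correlated at 0.97, and vehicle replicate 2 with sunitinib replicate 1 at 0.979.

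The repeated spots show how well each array measured Csf1. On slide 1 the spot differences ran from -1.31 to -0.23 with a median of -0.39, and on slide 2 from -1.29 to -0.20 with a median of -0.33. Every one of the 10 spots read lower with sunitinib on both slides, and in all 10 both sunitinib values lay below both vehicle values, where 27.3% and 21.6% of all single spots did so. The spots share the same 4 RNA samples, so they bear on the error of the array and not on the spread between samples. Tested singly, 8 of the 10 spots had an unadjusted p under 0.05 and 0 passed after adjustment. Of 217 probes on the array with 8 to 20 repeated spots, 10 had a difference at or below that of Csf1, itself included, and 14 a difference of at least its size in either direction. An exact permutation test of 2 arrays against 2 cannot give a two-sided p below 0.333.

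**Figure D2:**
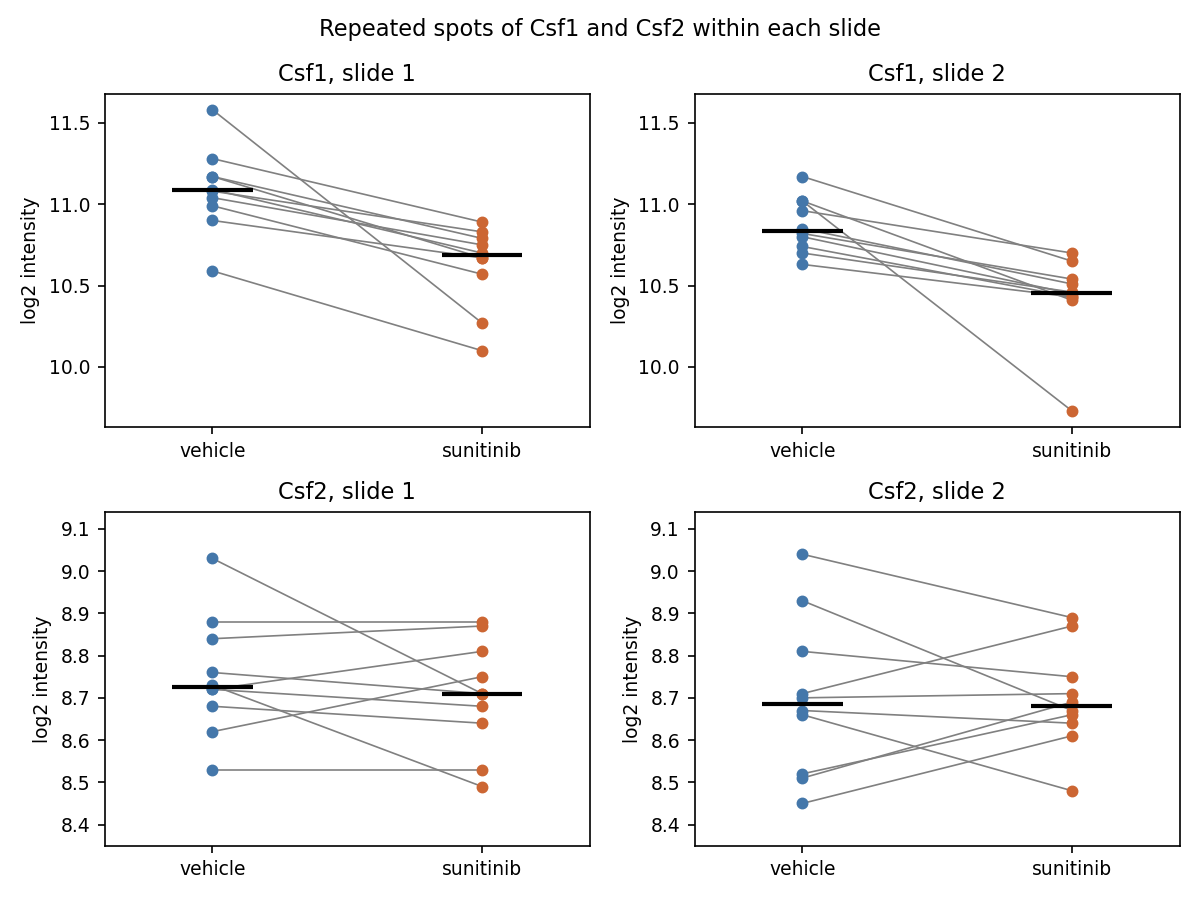
Log2 intensity of each of the 10 spots of Csf1 (upper row) and Csf2 (lower row) on the vehicle and sunitinib array of each slide, with grey lines joining the same spot and black bars for the median. All 10 Csf1 lines slope down on both slides, while Csf2 lines run both ways around 8.7.

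Csf2 showed no detectable difference. Its 10 spots (NM_009969) had medians of 8.73 and 8.69 with vehicle and 8.71 and 8.68 with sunitinib, all close to the floor. The arrays of the groups overlapped, with a difference of -0.01 (SE 0.08, 95% interval -0.215 to 0.195, limma adjusted p = 0.968). Between its spots the difference of group means ran from -0.235 to 0.125, with 6 spots lower and 4 higher. That range is a direct measure of how far 1 spot near the floor can stray.

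Csf3 (NM_009971) read 9.01 and 9.22 with vehicle and 9.01 and 8.97 with sunitinib. The higher value of vehicle replicate 2 set the difference of -0.125 (SE 0.10, limma adjusted p = 0.593), which was 0 on slide 1 and -0.25 on slide 2. Flt3l (NM_013520) read 9.07 and 8.92 with vehicle and 8.98 and 8.68 with sunitinib. Its groups overlapped, and the difference was -0.165 (SE 0.13, adjusted p = 0.583), at -0.09 on slide 1 and -0.24 on slide 2. Both differences lie within the range of the single Csf2 spots.

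Of the receptors, Csf2ra had the largest difference of the 10 probes, and it rested on 1 array. Its probe (NM_009970) read 14.60 and 14.87 with vehicle and 14.57 and 13.70 with sunitinib. Sunitinib replicate 1 was thus close to vehicle replicate 1, and sunitinib replicate 2 stood more than a log2 unit below its slide partner. The means were 14.74 ± 0.19 and 14.14 ± 0.62 (SD, n = 2), a difference of -0.60 (SE 0.30, 95% interval -1.38 to 0.18, limma adjusted p = 0.429). It was -0.03 on slide 1 and -1.17 on slide 2, and without sunitinib replicate 2 it was -0.165.

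Csf2rb, the partner chain, was even across the arrays on its brightest probe (AK154286), which read 12.11 and 12.10 with vehicle and 12.06 and 12.24 with sunitinib. The groups overlapped, with a difference of 0.05 (SE 0.10, 95% interval -0.205 to 0.295, adjusted p = 0.848). The other two probes (NM_007780) lay near the median of all genes. The brighter of them read 9.12 and 9.01 with vehicle and 8.99 and 9.33 with sunitinib (difference 0.095, SE 0.14), and the dimmer 8.92 and 8.83 against 8.92 and 8.62 (-0.105, SE 0.13). The 3 probes therefore disagreed in sign, each within its error. Mouse Csf2rb has a near-identical neighbouring copy, Csf2rb2, whose product serves interleukin 3 alone, and signal of the copies may not be fully separable. The Csf2rb2 probe read 11.70 and 11.60 with vehicle and 11.52 and 11.68 with sunitinib (difference -0.05, SE 0.10).

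Csf3r, the receptor through which Csf3 acts on neutrophils and their precursors, read 9.86 and 9.98 with vehicle and 9.75 and 10.19 with sunitinib (NM_007782). The sunitinib arrays were the lowest and the highest of the 4, and the difference was 0.05 (SE 0.17, 95% interval -0.377 to 0.477, limma adjusted p = 0.908). It was -0.11 on slide 1 and 0.21 on slide 2.

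Flt3 (NM_010229) read 8.82 and 8.88 with vehicle and 8.65 and 8.73 with sunitinib, all below the median of all genes. Both sunitinib arrays were lower, with a difference of -0.16 (SE 0.08, limma adjusted p = 0.441) and -0.17 and -0.15 on the slides. Neighbouring features deviated together on these arrays, and Flt3 and Flt3l were the members whose sign turned when a smooth trend with array position was taken out. Without the trend the difference was 0.01 for Flt3 and 0.04 for Flt3l, while it was -0.38 for Csf1 and -0.54 for Csf2ra.

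**Figure D3:**
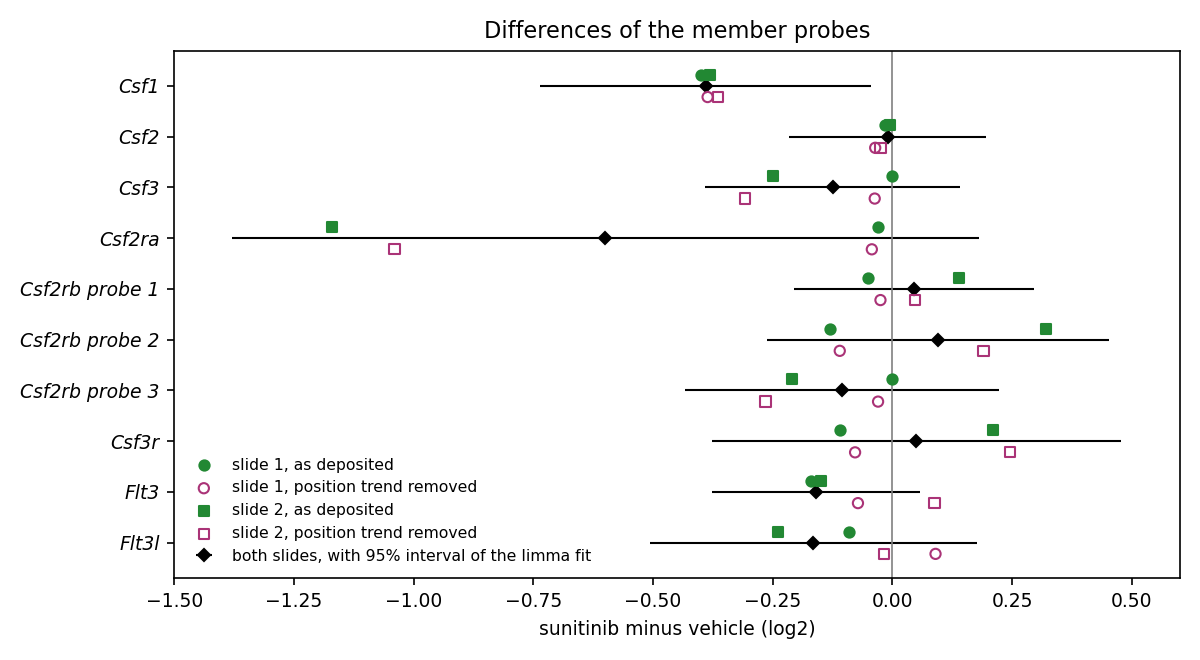
Sunitinib minus vehicle in log2 for the 10 member probes, overall with the 95% interval of the limma fit (diamonds), within each slide as deposited (filled) and within each slide after the position trend was removed (open). The slide values of Csf1 stay between -0.40 and -0.37, those of Csf2ra lie far apart at -0.03 and -1.17, and those of Flt3 and Flt3l move to either side of 0.

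Genes around these factors were examined as 5 lists with 48 genes, of which 43 had a named probe. None passed in limma over all probes (0 of 43, against 0.00524% of all genes). At an unadjusted p under 0.05, 6 were lower (14% of 43, against 6.32% of all genes) and 3 higher (6.98%, against 8.44%). The 6 include Zbtb46, which was added after its values were seen, so the 14% is partly set by that choice. The lists were also chosen with earlier results of these data known. Whether the 14% is an excess was not tested. The median difference was -0.025 over the 43 genes and 0.005 over all genes.

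The related ligands and receptors held the gene closest to Csf1 in role. Il34, the other ligand of Csf1r, read 11.54 and 11.30 with vehicle and 10.67 and 10.35 with sunitinib. Both sunitinib arrays were lower, with a difference of -0.91 (SE 0.15, limma unadjusted p = 0.00187, adjusted p = 0.352) and -0.87 and -0.95 on the slides. It was -0.73 without the position trend. Of the other 5 genes of that list, Il5, an eosinophil growth factor that signals through Csf2rb, had the smallest p (difference -0.125, SE 0.09), near the floor, and was at 0.03 without the position trend. The list median was -0.06.

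Of 11 measured signal transducers, Stat3, which carries signals of Csf3r and of the interleukin 6 family, read lower (12.34 and 12.16 with vehicle, 11.83 and 11.82 with sunitinib, difference -0.43, SE 0.10, unadjusted p = 0.00724). Its dim second probe was at 0.03. The adaptor Grb2 was at 0.41 (SE 0.09), and its second probe at 0.06. Without the position trend these were 0.23 and -0.05. Stat5a and Stat5b, the main transducers of Csf2rb, outside the naming rule, were at -0.03 and 0.04. The list median was -0.03.

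Of 8 feedback regulators, Socs1, an inhibitor of Jak kinases, read 10.19 and 10.58 with vehicle and 11.05 and 11.08 with sunitinib (difference 0.68, SE 0.15, unadjusted p = 0.00605). Socs3, which restrains Csf3r, read 14.04 and 13.89 with vehicle and 13.54 and 13.73 with sunitinib (difference -0.33, SE 0.11, unadjusted p = 0.0305). Both separated the groups, in opposite directions, and the adjusted p was 0.352 for each. The list median was 0.01.

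Of 10 myeloid transcription factors, Spi1 (PU.1), which activates several receptor genes of this family, was higher by 0.215 (SE 0.08), on a probe slightly above the median of all genes. Id2, needed for some dendritic cells, was lower by 1.04 on the log2 scale (-1.035, SE 0.33), with -0.56 on slide 1 and -1.51 on slide 2, and its other probes were at -0.255 and -0.19. Zbtb46, a dendritic cell factor added here after its values were seen, was at -0.26 (SE 0.095) near the floor, and its other probes were at 0.15 and -0.20. Without the position trend its 3 probes were at -0.06, 0.305 and -0.004. The list median was 0.01.

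Of 8 inducers of colony-stimulating factors, Il1b, an inflammatory cytokine that induces Csf2 and Csf3, read 11.62 on both vehicle arrays and 11.05 and 11.15 on the sunitinib arrays over 10 spots (difference -0.52, SE 0.08, limma unadjusted p = 0.00169, adjusted p = 0.352). Rela, a subunit of NF-kappaB, was at 0.185 (SE 0.09), and at 0.11 without the position trend. The list median was 0.01.

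**Figure D4:**
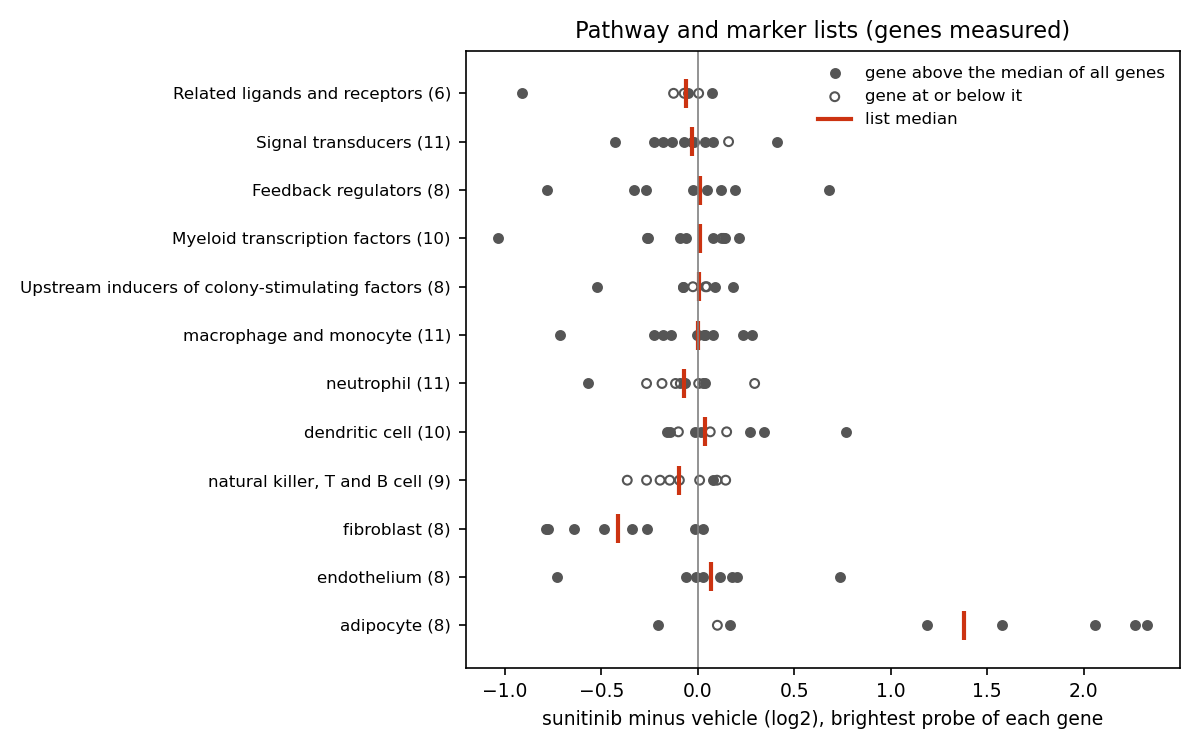
Sunitinib minus vehicle in log2 for each measured gene (brightest probe) of 5 pathway and 7 marker lists, with red bars for list medians and open circles for genes at or below the median of all genes. Pathway lists centre near 0 with single genes apart, such as Il34 at -0.91, while the fibroblast list lies at -0.41 and the adipocyte list at 1.38.

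Markers of the cells that make or receive these factors were read on the same arrays. These lists, too, were chosen with earlier results of these data known. Their counts beside the shares of all genes therefore describe the lists and are no independent support. In bulk tissue, fewer cells of a type and less RNA per cell cannot be told apart. Macrophage and monocyte markers, the cells that depend on Csf1, were all above the median of all genes (11 of 11). Their mean log2 value was 13.09 and 12.95 with vehicle and 12.86 and 13.08 with sunitinib, and the groups overlapped. Lyz2 was saturated on all 4 arrays, and the median difference over the other 10 genes was 0.015. The smallest p belonged to Mertk (-0.225, SE 0.11) and Ly6c2 (0.235, SE 0.13), which were at -0.08 and 0.14 without the position trend.

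Fibroblast markers, 8 of 8 above that median, had a mean of 12.98 and 12.27 with vehicle and 12.24 and 12.19 with sunitinib, and a median difference of -0.41 (-0.815 on slide 1 and -0.22 on slide 2). The mean was thus high on vehicle replicate 1, while vehicle replicate 2 lay close to the sunitinib arrays. Both sunitinib arrays were below both vehicle arrays for 4 of the 8 genes and above them for 0 (22.3% and 25.9% of all genes). Pdgfra (-0.785, SE 0.23) and Thy1 (-0.485, SE 0.12) had the smallest p, and the dimmer Thy1 probe was at -0.01. Col3a1, kept in the list, read 15.94 to 15.97, close to the saturation mark. The list median was thus on the same side of 0 as Csf1 and Il34, and its part in those differences was not tested. Endothelial markers (8 of 8 above the median) had a mean of 11.14 and 11.37 with vehicle and 11.44 and 11.19 with sunitinib, with a median difference of 0.07. Of these 8 genes, both sunitinib arrays were below both vehicle arrays for 1 and above them for 3, beside the same shares of all genes. Vwf was at -0.73 (SE 0.10), with its dimmer probes at -0.495 and -0.245. Esam was at 0.205 (SE 0.08), and at 0.05 without the position trend.

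Neutrophil markers, read beside Csf3 and Csf3r, were above the median of all genes in 4 of 11 cases. Their mean was 9.43 and 9.46 with vehicle and 9.12 and 9.59 with sunitinib, with a median difference of -0.07. Camp (-0.265, SE 0.08) and Mmp8 (0.295, SE 0.08) lay near the floor, and were at -0.07 and 0.12 without the position trend. The 4 above the median, outside the naming rule, each differed in sign between slides 1 and 2. S100a9 was at -0.72 and 0.80, S100a8 at -0.60 and 0.46, Mmp9 at -1.70 and 0.56, and Retnlg at 0.01 and -0.14. Dendritic cell markers, read beside Flt3 and Flt3l, were above it in 7 of 10 cases, with a mean of 10.42 and 10.35 with vehicle and 10.54 and 10.47 with sunitinib. The median difference was 0.04, and both sunitinib arrays were below both vehicle arrays for 3 genes and above them for 3 (22.3% and 25.9% of all genes). Itgax was at 0.77 (SE 0.24), with its dim second probe at 0.065, and Bst2 was at 0.27 (SE 0.12) and at 0.105 without the position trend. Natural killer, T and B cell markers were above it in 1 of 9 cases, with a median difference of -0.095. Both sunitinib arrays were below both vehicle arrays for 4 of the 9 genes and above them for 0, beside the same shares. Those 4 genes lay below the median of all genes. Klrb1c was at -0.365 (SE 0.15), with a second probe at 0.08, and Prf1 was at -0.265 (SE 0.14).

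Adipocyte markers had the largest median difference of the 7 marker lists (1.38), with Adipoq at 2.33 (SE 0.21) and Fasn at 1.575 (SE 0.14, dim second probe 0.095). Both sunitinib arrays were above both vehicle arrays for 6 of the 8 genes and below them for 0 (25.9% and 22.3% of all genes). Fabp4 (0.17) and Lpl (-0.205) overlapped between the groups, and Lep, among the 6, was at 0.10 near the floor. Over the 65 measured marker genes, 0 passed in limma, and 4 were lower and 7 higher at an unadjusted p under 0.05 (6.15% and 10.8%, against 6.32% and 8.44% of all genes). The 1 probe that passed over the whole array was that of Xist, the RNA of the inactive X chromosome, at 12.19 and 12.26 with vehicle and 8.97 and 8.96 with sunitinib (adjusted p = 0.00997). The Y-linked gene Eif2s3y read 8.46 and 8.58 with vehicle and 10.21 and 10.02 with sunitinib. The sunitinib and vehicle arrays thus also differ in these sex-linked genes, so every difference above is also one between arrays with and without Xist. The labels do not give the sex of the hosts. A difference in host sex between the groups cannot be told apart from treatment for any gene above, and its part was not tested.

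Patterns across the 4 arrays were compared by the root mean square distance between values centred on each gene's own mean, over 9534 other genes above the median of all genes. For Csf1 the nearest were Eln (elastin) and Nxn (nucleoredoxin), both at a distance of 0.019, and C1qtnf2 at 0.021. Eln, for example, read 9.53 and 9.24 with vehicle and 9.08 and 8.87 with sunitinib. For Csf2ra the nearest were Cebpzos (0.013), Ttpal (0.02) and the lysosomal membrane gene Laptm4a (0.027). Laptm4a read 15.13 and 15.42 with vehicle and 15.05 and 14.24 with sunitinib, low on sunitinib replicate 2 alone. These genes were picked for that likeness, so the shared pattern is no separate observation. Within a distance of 0.1 there were 258 genes for Csf1 and 81 for Csf2ra.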

How the data were processed

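RNA of 4 xenograft samples (0.5 µg each, RIN 9, per the labels) was hybridised to single-colour Agilent arrays. The authors deposited 1 log2 value per feature and array. Per the submitters' processing notes they used limma, and their background correction, normalization and genome build are not known here. Their range showed that values are on the log2 scale. Quartiles were nearly equal on all arrays, and values were used as deposited, without detection flags.

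Features were named through the platform annotation (33653 with 1 symbol, 56 with several, 11511 not listed), with symbols updated through RefSeq. Spots sharing gene and accession in 8 or more copies were combined by their median, which left 43154 probes. Sunitinib was compared with vehicle by lmFit and eBayes in limma 3.58.1 (R 4.3.3) and Benjamini-Hochberg adjustment over all probes, checked on simulated data. Every probe was tested, since each probe of the members is described. The eBayes step moderates the SE of each probe by the spread of all probes. Of the 4.89 degrees of freedom, 2.89 came from this prior.

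The titles put the same replicate number of both groups on 1 slide, so the number pairs the samples, and within-group deviations of slide partners correlated at -0.225 across probes. The position trend was the local median in a window of 21 by 21 features, with 85 columns and 532 rows inferred from feature numbers. Members and lists were chosen with earlier results of these data known. Named were all members, the 2 genes of smallest p in each list (none passed), and the 3 genes nearest in pattern to members above the median of all genes with a range of at least 0.5.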

Additional observations from a re-analysis of the deposited data

How the results depend on the processing

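No member probe passed under any of the alternatives, and 0 list genes did. Csf1 stayed negative under 14 alternatives (-0.515 to -0.265, limma adjusted p = 0.324 to 0.635) and Csf2ra under 15 (-1.035 to -0.165, adjusted p = 0.382 to 0.764); Csf3 stayed negative too. With the slide as a replicate block, which leaves 1 residual degree of freedom, Csf1 was -0.39 (SE 0.08, adjusted p = 0.54), the block changed no call of a member, and over all probes 0 passed and 3667 had an unadjusted p under 0.05, against 1 and 5792. The number passing over all probes was 2 with median centring, 0 with the probes of a gene averaged, 6 with a trended and robust prior, 4 with the position trend removed, and 4 with that and the slide as a replicate block, an alternative added after the data were seen (3467 with an unadjusted p under 0.05). Leaving out 1 array gave 0 passing and 2849 to 5110 with an unadjusted p under 0.05.

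Signs turned for 7 probes whose 95% intervals all span 0. Without the position trend, with and without the block, Flt3 was at 0.007 and Flt3l at 0.036. Leaving out 1 array, Csf2 ran from -0.03 to 0.01 (0.005 without sunitinib replicate 2) and Csf3r from -0.17 to 0.27 (-0.01 without vehicle replicate 1). The 3 Csf2rb probes, from brightest to dimmest, ran from -0.045 to 0.135, from -0.075 to 0.265 and from -0.255 to 0.045. The cause was not tested. Fits without 1 array rest on fewer arrays, while those without the position trend use all 4. Signal over the floor limits Csf2, Csf3, Flt3 and Flt3l, and 4 arrays limit all precision.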
